A study of Rattus norvegicus with 12 samples.

Results

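The globin genes and a pair of erythroid genes were followed in left atrial RNA of hypertensive and normotensive rats. They were taken as every gene with counts whose symbol begins with Hba or Hbb, together with Alas2 and Slc4a1. The choice gave 7 of the 21239 genes with counts, namely the alpha globin copies Hba-a1 (gene ID 25632), Hba-a2 (360504) and Hba-a3 (287167), the beta globin copies Hbb (24440) and Hbb-bs (689064), Alas2 (25748) and Slc4a1 (24779). Another gene, Hbb-b1, was listed without counts and was not used here. The choice was made with the levels in the WKY and SHR libraries known, and Hba-a3 was picked out for its level in the WKY libraries, so the comparison of those groups is given for these genes as a description without a test.

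Hemoglobin carries oxygen in red blood cells and is built from alpha and beta globin chains, each holding a heme. Young red cells still contain globin mRNA when they enter the circulation, so a piece of heart muscle yields globin reads from the blood it holds. Alas2 makes the enzyme of the first step of heme synthesis in red cell precursors, and Slc4a1 makes band 3, the anion exchanger of the red cell membrane.

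The study compared WKY rats, a normotensive strain, with spontaneously hypertensive rats (SHRs), all male and bought at an age of 14 weeks. The WKY and SHR groups received saline (7.5 ml/kg/day), the ARB group consisted of SHRs given the angiotensin receptor blocker valsartan (30 mg/kg/day), and the ARNI group of SHRs given sacubitril/valsartan (60 mg/kg/day), which adds a neprilysin inhibitor. Treatment lasted 4 weeks, and each of the 4 groups had 3 rats and 3 libraries. For 6 libraries, those named WKY or SHR, the title states the opposite strain to the bracketed library name, and the strain field reads Wistar-Kyoto for all 12. Libraries were grouped by name.

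Total counts were 11252361 to 15823525 per library. The tissue label was not borne out in every library. Myl7, the atrial myosin light chain, was at 0.889 to 15.9 CPM (reads of a gene scaled to a common library total) in the WKY libraries and at 9.67 CPM in ARNI replicate 2, against 4478 to 11547 CPM in the other 8 libraries. Myl2, the ventricular light chain, was at 2298 to 4161 CPM in the 3 WKY libraries, SHR replicate 2, ARB replicate 3 and ARNI replicate 2, and at 0.135 to 24.2 CPM in the other 6. Fold changes that rest on SHR replicate 2, ARB replicate 3 or ARNI replicate 2 are therefore also given without them. Strain and chamber markers cannot be told apart between the SHR and WKY groups. Leaving out SHR replicate 2 there removes the only SHR library above 1000 CPM of Myl2, so it widens the difference in chamber markers.

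The start regions of the globin genes are shown because the copies of a family followed each other closely between libraries except Hba-a3, which was nearly without reads outside the WKY group. Each sequence holds the 150 bases before the RefSeq start of the gene on the minus strand of GRCr8, a build other than the Rnor_6.0 of the deposited values, and capitals mark the TATA box (TATAAA), the CCAAT box and the CACCC box on either strand. The windows lie at chr10:15842581-15842730 (Hba-a1), chr10:15829139-15829288 (Hba-a2), chr10:15816944-15817093 (Hba-a3), chr1:167663722-167663871 (Hbb) and chr1:167631631-167631780 (Hbb-bs).
Hba-a1: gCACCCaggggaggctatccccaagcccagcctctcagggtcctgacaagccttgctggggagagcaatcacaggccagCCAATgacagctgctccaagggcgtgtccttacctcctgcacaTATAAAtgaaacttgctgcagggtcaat
Hba-a2: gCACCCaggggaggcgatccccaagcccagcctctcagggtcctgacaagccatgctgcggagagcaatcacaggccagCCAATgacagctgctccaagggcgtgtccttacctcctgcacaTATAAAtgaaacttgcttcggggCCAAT
Hba-a3: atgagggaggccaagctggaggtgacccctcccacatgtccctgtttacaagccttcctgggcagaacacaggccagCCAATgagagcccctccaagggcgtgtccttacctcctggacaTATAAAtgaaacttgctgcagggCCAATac
Hbb: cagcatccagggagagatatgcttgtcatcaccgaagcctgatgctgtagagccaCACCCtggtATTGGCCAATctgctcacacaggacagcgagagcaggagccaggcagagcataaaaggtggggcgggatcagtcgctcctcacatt
Hbb-bs: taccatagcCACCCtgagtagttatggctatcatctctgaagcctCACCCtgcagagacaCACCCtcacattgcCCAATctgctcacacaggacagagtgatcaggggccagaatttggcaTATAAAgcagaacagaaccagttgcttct

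The windows of Hba-a1 and Hba-a2 were identical at 96% of aligned positions, and that of Hba-a3 at 75.6% with Hba-a1 and 74.4% with Hba-a2. Hbb and Hbb-bs shared 67.9%. CCAAT was found in 5 of 5 windows and in 23.5% of the 33469 promoters of the same length in the table. TATAAA was found in 4 of 5, all but Hbb, and in 8.0% of all promoters. CACCC was found in 4 of 5, all but Hba-a3, and in 35.2% of all promoters. GATAAG, a single form of the motif of GATA factors, was in 0 of 5 windows and in 3.66% of all promoters. Other forms of that motif were not searched. A match here is a run of letters, and no factor was measured.

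Hba-a1, the globin copy with the most reads, lay at 1189, 573 and 985 CPM in the WKY libraries (replicates 1 to 3), at 209, 476 and 599 in the SHR libraries, at 221, 255 and 2059.7 in the ARB libraries and at 133, 505 and 298 in the ARNI libraries. ARB replicate 3 was the highest of all 12 libraries and ARNI replicate 1 the lowest. The WKY and SHR groups overlapped, since SHR replicate 3 lay above WKY replicate 2. In such bulk samples fewer red cells and less globin RNA per cell cannot be told apart.

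Hba-a2, the copy next in reads, lay at 442, 215 and 361 CPM in the WKY libraries, at 87.5, 198 and 248 in the SHR libraries, at 91.9, 101 and 907 in the ARB libraries and at 57.5, 207 and 121 in the ARNI libraries. It ordered the 3 libraries of each group as Hba-a1 did.

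Hba-a3, the alpha copy picked out by the choice, lay at 13.1, 6.73 and 10.045 CPM in the WKY libraries. It had no read in any SHR library, in ARB replicates 1 and 2 or in ARNI replicates 2 and 3, and lay at 0.172 CPM in ARB replicate 3 (2.17 expected reads) and at 0.0683 CPM in ARNI replicate 1 (1.08 expected reads). The WKY libraries stood apart from the other 9. ARB replicate 3 had more Hba-a1 than any WKY library, and ARNI replicate 2 had the ventricular marker as the WKY libraries did.

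Hbb, the beta globin gene with the most reads, lay at 512, 237 and 378 CPM in the WKY libraries, at 103, 203 and 248 in the SHR libraries, at 94.5, 123 and 848 in the ARB libraries and at 52.3, 238 and 124 in the ARNI libraries. Hbb-bs, the other beta gene, lay at 34.8, 14.8 and 31.5 CPM in the WKY libraries, 6.50, 12.8 and 21.3 in the SHR libraries, 5.94, 7.42 and 66.9 in the ARB libraries and 3.79, 22.1 and 7.44 in the ARNI libraries. In both genes ARB replicate 3 was again the highest library and ARNI replicate 1 the lowest, and the WKY and SHR groups overlapped.

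Alas2 lay at 16.9, 8.52 and 13.2 CPM in the WKY libraries, at 2.67, 6.70 and 6.30 in the SHR libraries, at 2.78, 3.58 and 26.0 in the ARB libraries and at 2.09, 8.73 and 4.07 in the ARNI libraries. All SHR libraries lay below all WKY libraries, while ARB replicate 3 lay above them and ARNI replicate 2 among them.

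Slc4a1 lay at 7.76, 5.39 and 10.4 CPM in the WKY libraries, at 0.134, 3.15 and 0.610 in the SHR libraries, at 0.198, 0.481 and 4.20 in the ARB libraries and at 0.253, 6.21 and 0.136 in the ARNI libraries. In each group of SHRs a single library carried most of the signal, namely SHR replicate 2, ARB replicate 3 and ARNI replicate 2. These levels rest on few reads, 2 to 9 in the other 6 libraries of SHRs against 40 to 79 in those 3, so the low values carry large counting error.

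**Figure D1:**
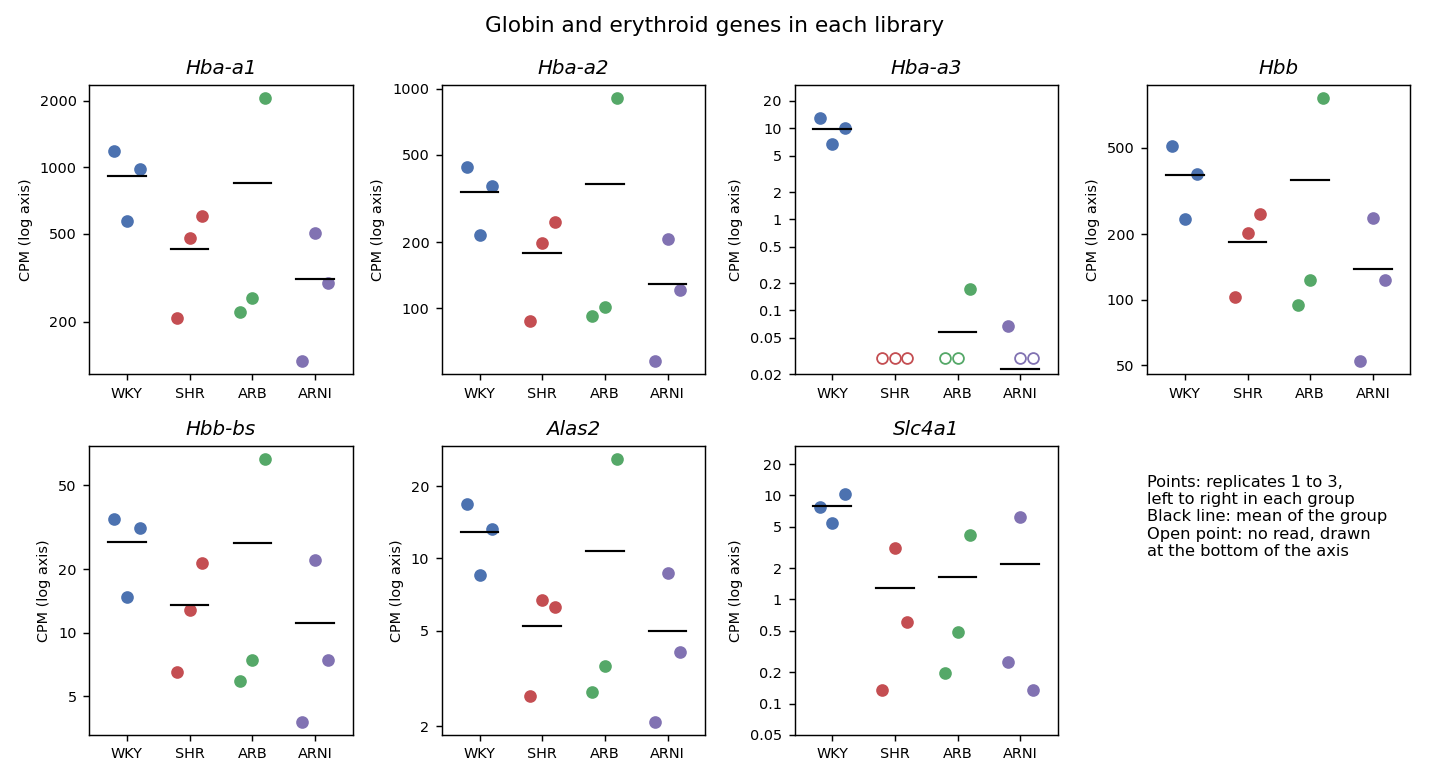
Level of each of the 7 genes in CPM on log axes, by group, with replicates 1 to 3 from left to right, the group mean as a black line and libraries without a read as open points. Hba-a3 lies at 6.73 to 13.1 CPM in the WKY libraries and at 0 to 0.172 CPM elsewhere, and ARB replicate 3 is the highest library for Hba-a1, Hba-a2, Hbb, Hbb-bs and Alas2.

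Summed over the 5 globin genes, the level was 2190.2, 1046 and 1766 CPM in the WKY libraries, 406, 889.8 and 1116 in the SHR libraries, 413, 486 and 3882 in the ARB libraries and 246, 972 and 550.0 in the ARNI libraries. Reads of these 5 genes were thus 0.0246% to 0.388% of all reads, and the highest library held 15.8-fold the lowest. The group means were 1667 ± 578 CPM in the WKY group, 804 ± 363 in the SHR group, 1594 ± 1982 in the ARB group and 589 ± 364 in the ARNI group (SD, n = 3 each). Within the ARB group alone, the levels spread over 9.39-fold.

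Between the SHR and WKY groups, which the study compared for effects of hypertension, all 7 genes had lower means in the SHR group. These groups also differ in strain and in chamber markers, and hypertension cannot be told apart from either. The fitted log2 fold changes of SHR over WKY were -1.24 (SE 0.43) for Hba-a1, -1.08 (SE 0.41) for Hba-a2, -1.17 (SE 0.38) for Hbb, -1.15 (SE 0.47) for Hbb-bs, -1.44 (SE 0.40) for Alas2 and -2.74 (SE 0.87) for Slc4a1. Without SHR replicate 2, the value of Slc4a1 was -4.55 and the others were -1.16 to -1.71, with Hba-a3 left aside. For Hba-a3, with a WKY mean of 9.97 ± 3.19 CPM (SD, n = 3) and 0 reads in the SHR group, the level was at least 46.7-fold lower in the SHR group, taking 3 reads per library, a mean of 0.213 CPM, as the limit that a count of 0 allows. The groups did not overlap for 3 of 7 genes, Hba-a3, Alas2 and Slc4a1, all lower in the SHR group, with and without SHR replicate 2. Among the 13794 genes tested, 15.9% were lower in the SHR group without overlap. The median fold change of the 7 genes was -1.24 on the log2 scale and that of all genes tested 0.01, and since the choice of genes used these groups, nothing is drawn from the difference.

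The drug comparisons were not used in choosing the genes and were tested with edgeR's quasi-likelihood test. The filter on low counts left 5 of the 7 genes, since Hba-a3 and Slc4a1 were too low in the groups of SHRs. A call needed a log2 fold change of 1 or more in either direction and a p of 0.05 or less after Benjamini-Hochberg adjustment over all genes tested.

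Valsartan against saline asks what receptor blockade did in SHRs. The log2 fold changes of ARB over SHR were 1.08 (SE 0.94) for Hba-a1, 1.15 (SE 0.96) for Hba-a2, 1.04 (SE 0.88) for Hbb, 1.08 (SE 0.99) for Hbb-bs and 1.13 (SE 0.92) for Alas2. None of the 5 genes was called by edgeR's quasi-likelihood test (adjusted p = 0.9999 for each), where 0% of the 13979 genes tested were called. No gene passed an unadjusted p of 0.05 among the 5, against 225 of all genes tested, the median of the 5 was 1.08 against -0.01 for all genes, and DESeq2 called 0 of the 7 genes and 3 of all genes. DESeq2 gave no p for Hba-a1, Hba-a2 and Hbb. Without ARB replicate 3 the direction turned, with fold changes of -0.86, -0.89, -0.78, -1.02 and -0.73 in the same order. The difference in mean log2 summed globin was 0.32 with all 6 libraries, -0.72 without ARB replicate 3 and -0.11 without SHR replicate 1. No gene had groups without overlap (5.39% of all genes tested in either direction).

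Sacubitril/valsartan against saline gave log2 fold changes of ARNI over SHR of -0.33 (SE 0.61) for Hba-a1, -0.34 (SE 0.59) for Hba-a2, -0.29 (SE 0.62) for Hbb, -0.13 (SE 0.76) for Hbb-bs and 0.05 (SE 0.64) for Alas2. These differences were smaller than their errors, and 0 of 5 genes were called by edgeR's quasi-likelihood test (adjusted p = 0.999 for each), where 0% of the 13955 genes tested were called. At an unadjusted p of 0.05, 0 of the 5 genes and 227 of all genes passed, the median of the 5 was -0.29 against 0.0036 for all genes, and DESeq2 called 0 of the 7 genes and 7 of all genes. The groups overlapped for every gene, while 6.56% of all genes tested did not. Without SHR replicate 2 and ARNI replicate 2, the 5 fold changes were -1.24 to -0.48 and 0 were called.

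Sacubitril/valsartan against valsartan gave log2 fold changes of ARNI over ARB of -1.40 (SE 1.03) for Hba-a1, -1.47 (SE 1.05) for Hba-a2, -1.32 (SE 1.02) for Hbb, -1.21 (SE 1.15) for Hbb-bs and -1.07 (SE 1.03) for Alas2. Again 0 of 5 genes were called by edgeR's quasi-likelihood test (adjusted p = 0.993 for each), where 0% of the 13948 genes tested were called. At an unadjusted p of 0.05, 0 of the 5 genes and 539 of all genes passed, the median of the 5 was -1.32 against 0.02 for all genes, and DESeq2 called 0 of the 7 genes and 18 of all genes. Without ARB replicate 3 the values were 0.54, 0.56, 0.50, 0.90 and 0.79 in the same order. Without both ARB replicate 3 and ARNI replicate 2 they lay between -0.29 and -0.03. No gene had groups without overlap (10.5% of all genes tested). The ARB and SHR libraries each enter a pair of these comparisons, so their values are not independent.

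Slc4a1, which entered edgeR's pairwise fit when the filter was left off, then had log2 fold changes of 0.37 (SE 1.29) for ARB over SHR, 0.92 (SE 1.59) for ARNI over SHR and 0.56 (SE 1.60) for ARNI over ARB. Without SHR replicate 2, ARB replicate 3 and ARNI replicate 2 the signs turned, at -0.0924 (SE 0.95), -0.83 (SE 1.06) and -0.74 (SE 0.90). Each of these values was smaller than its error.

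**Figure D2:**
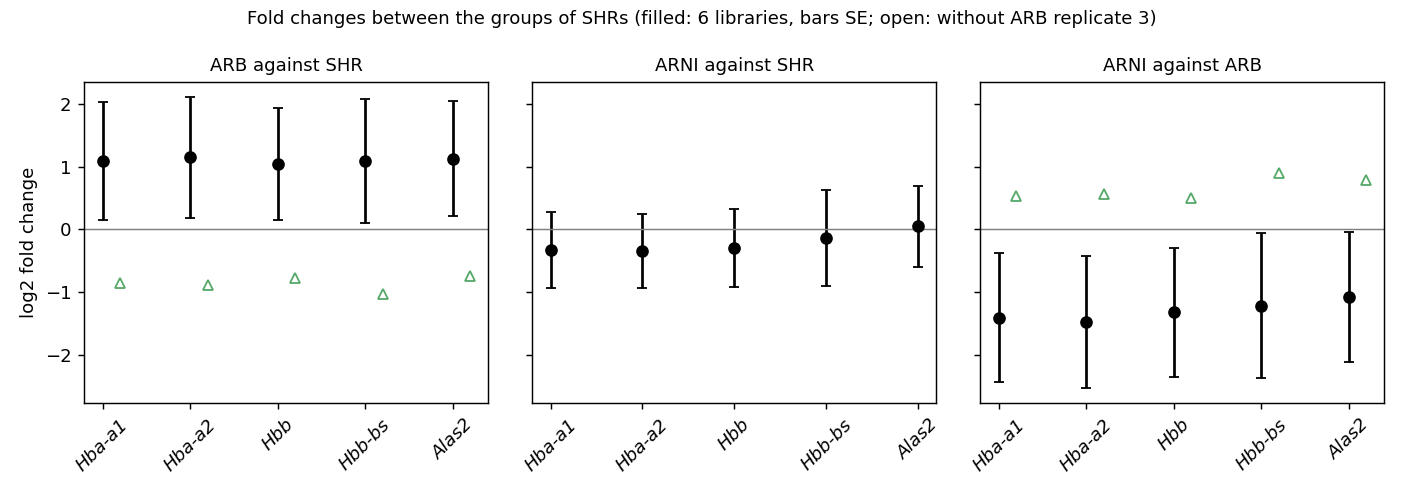
Log2 fold changes of 5 genes in the 3 comparisons between groups of SHRs, with filled points and SE bars for all 6 libraries of a pair and open triangles for the values without ARB replicate 3. The ARB over SHR values lie at 1.04 to 1.15 with that library and at -1.02 to -0.73 without it, and the ARNI over ARB values change from negative to positive.

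The make-up of the globin reads is taken relative to the globin of the same library and was compared apart from the totals. Counts from RSEM divide a read among the genes it matches. Hba-a1 and Hba-a2 were not whole (beyond 0.005 reads) in 12 of 12 libraries and Hba-a3 in 5, the 5 in which it had reads, but the sum of the 3 copies was whole in 12 of 12 libraries within 0.015 reads, so reads were divided among these copies. Hbb and Hbb-bs had no whole sum in any library, so part of their reads was divided with another gene. The split between copies is therefore an estimate, and the intervals below cover counting error only.

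Hba-a3 took 0.798% (95% Wilson interval 0.682 to 0.934), 0.847% (0.675 to 1.05) and 0.741% (0.616 to 0.890) of the alpha globin reads in WKY replicates 1 to 3. In 7 of the 9 libraries of SHRs it took 0 reads, which allows a share of up to 0.0240% to 0.0677% at the limit of 3 reads. The upper ends of their 95% Wilson intervals were 0.0307% to 0.0867%. ARB replicate 3 had 0.00580% (0.00147 to 0.0195) and ARNI replicate 1 0.0359% (0.00587 to 0.188). At the mean WKY share of 0.795%, the 9 libraries would hold 724 Hba-a3 reads among their 91044 alpha globin reads, 23.9 to 298 per library, and they held 3.25. Since Hba-a3 was picked out for this pattern, these figures describe it and are no test.

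Hba-a2 took 26.9%, 27.1% and 26.6% of the alpha globin reads in the WKY libraries, 29.5%, 29.4% and 29.3% in the SHR libraries, 29.4%, 28.5% and 30.6% in the ARB libraries and 30.2%, 29.1% and 28.9% in the ARNI libraries. The WKY libraries were the lowest 3 of 12 and did not overlap the others. Hba-a1 took 72.1% to 72.6% in the WKY libraries and 69.4% to 71.5% elsewhere. With Hba-a3 left out of the total, Hba-a2 took 26.8% to 27.3% in the WKY libraries and 28.5% to 30.6% in the 9 libraries of SHRs. These shares were compared after earlier results were known and carry no test.

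Hbb-bs took 5.89% to 7.68% of the reads of both beta genes in the WKY libraries and 5.67% to 8.51% in the others, so the groups overlapped. The ratio of alpha globin reads to those of Hbb and Hbb-bs lay between 2.70 and 3.39 in all 12 libraries. Its group means were 3.16 ± 0.15 (WKY), 2.99 ± 0.25 (SHR), 3.03 ± 0.27 (ARB) and 3.11 ± 0.33 (ARNI; SD, n = 3 each). Beta globin stands for Hbb and Hbb-bs throughout, without Hbbl1, a further beta globin gene described below. Hbbl1 had more CPM than Hbb-bs in every library, and shares and ratios with it included were not computed. The ratio is one of reads, not of molecules, since transcript lengths were not used here.

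**Figure D3:**
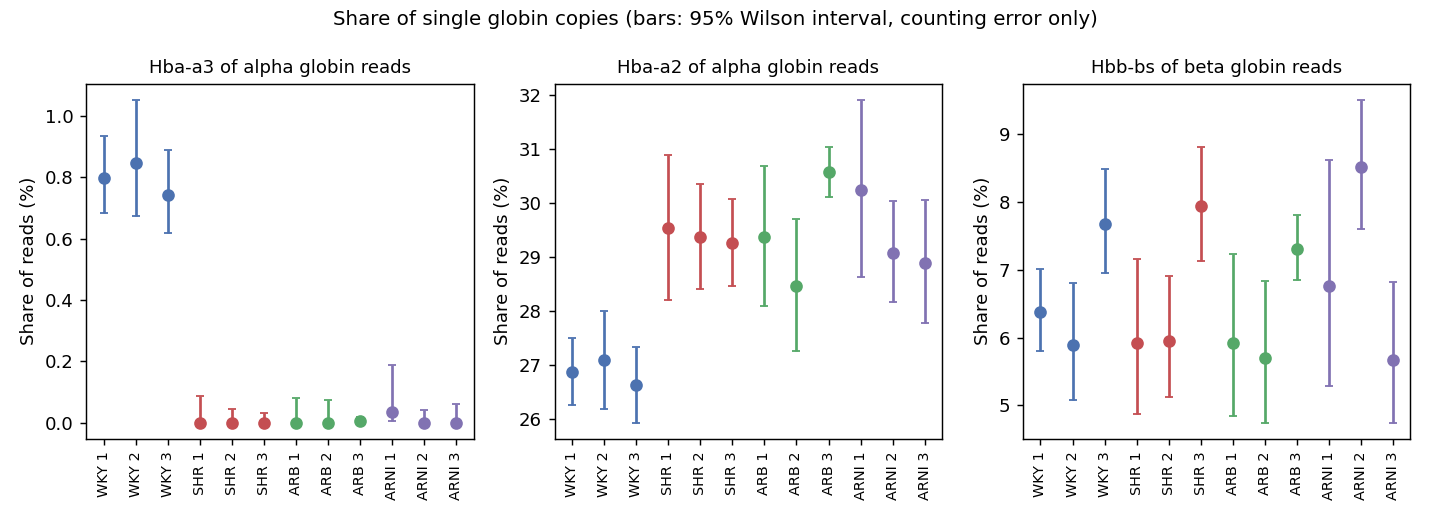
Share of the alpha globin reads taken by Hba-a3 and by Hba-a2, and of the reads of Hbb and Hbb-bs taken by Hbb-bs, in percent. Each library is shown with its 95% Wilson interval. The WKY libraries lie apart from the other 9 for Hba-a3 (0.741% to 0.847% against at most 0.0359%) and for Hba-a2 (26.6% to 27.1% against 28.5% to 30.6%), and not for Hbb-bs. Only the axis of the Hba-a3 panel includes 0.

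Alas2 kept a narrow relation to globin. It had 7.71, 8.15 and 7.50 reads per 1000 globin reads in the WKY libraries, 6.59, 7.53 and 5.65 in the SHR libraries, 6.72, 7.36 and 6.70 in the ARB libraries and 8.47, 8.98 and 7.40 in the ARNI libraries. The highest of these was 1.59-fold the lowest, while summed globin differed 15.8-fold. The WKY and SHR groups, apart by CPM, overlapped per globin read only through SHR replicate 2 (7.53 against 7.50 in WKY replicate 3). Without SHR replicate 2, which held ventricular markers, the SHR libraries lay below all WKY libraries here too.

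Slc4a1 did not keep such a ratio. It had 3.54, 5.15 and 5.89 reads per 1000 globin reads in the WKY libraries, 0.329, 3.54 and 0.546 in the SHR libraries, 0.480, 0.991 and 1.08 in the ARB libraries and 1.03, 6.39 and 0.247 in the ARNI libraries, a 25.9-fold span. SHR replicate 2 and ARNI replicate 2 lay at the WKY level or above it. In CPM, Slc4a1 was at 3.15 to 10.4 in the 6 libraries with Myl2 above 1000 CPM and at 0.134 to 0.610 in the other 6. SHR replicate 3 is an example, with more summed globin (1116 CPM) than SHR replicate 2 (889.8 CPM) and less Slc4a1 (0.610 against 3.15 CPM). The part of the ventricular tissue in the Slc4a1 level was not tested.

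Over the 9 libraries of SHRs, alpha and beta globin levels moved together on the log2(CPM + 1) scale (Pearson's r = 0.995, Spearman's rho = 0.983). Without ARB replicate 3 and ARNI replicate 1, the libraries farthest from the median, r was 0.984, and with each value taken less its group mean it was 0.994. Summed globin and Alas2 gave r = 0.983 and rho = 0.95, with r = 0.948 without the same 2 libraries and 0.992 less the group means. Over the 6 libraries of SHRs under 1000 CPM of Myl2, r was 0.984 for alpha and beta globin and 0.981 for summed globin and Alas2. Summed globin and Slc4a1 gave r = 0.73 and rho = 0.75 over the 9 libraries and r = 0.62 and rho = 0.43 over those 6. The other 3 libraries lay apart in Slc4a1 CPM, so the value over 9 mixes separate sets. Per 1000 globin reads, however, ARB replicate 3 (1.08) lay beside ARNI replicate 1 (1.03). These 3 relations are descriptions over libraries that share their totals between both measures of a pair.

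**Figure D4:**
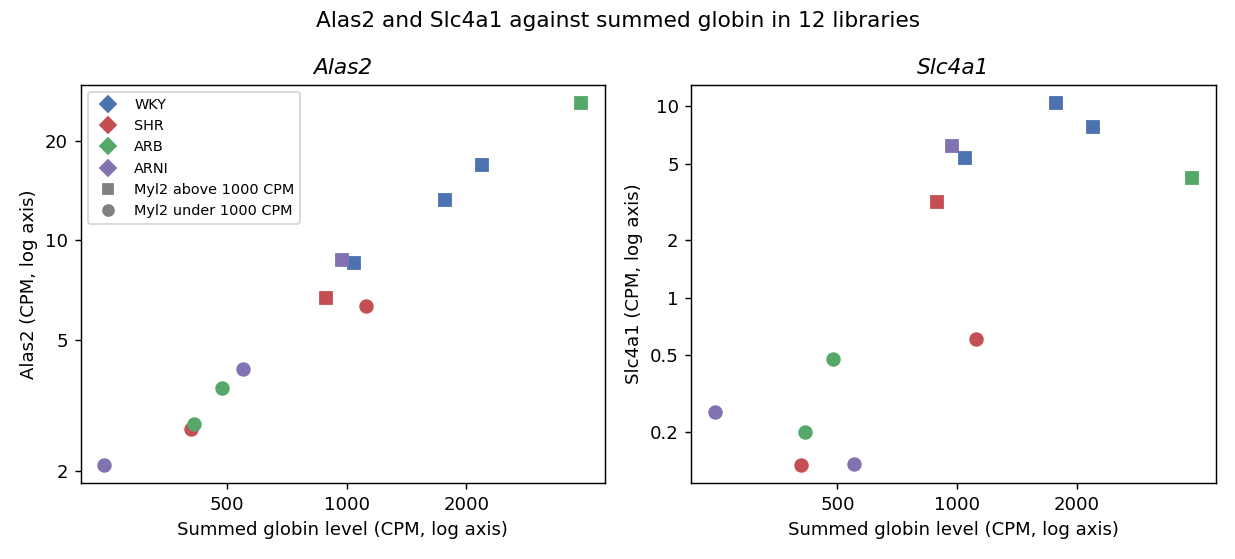
Alas2 and Slc4a1 against summed globin in CPM on log axes for 12 libraries, coloured by group, with squares for libraries above 1000 CPM of Myl2 and circles for the others. Alas2 follows summed globin at 5.65 to 8.98 reads per 1000 globin reads, and Slc4a1 lies at 3.15 to 10.4 CPM in the squares and at 0.134 to 0.610 CPM in the circles.

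Over all 12 libraries and 14452 genes, the genes whose log2 CPM was most like that of Hba-a3 were H2bc12, a histone H2B gene (Pearson's r = 0.98), Uap1l2 (0.98), Mettl24 (0.98), RT1-CE10, a class I histocompatibility gene (0.96), and Serhl2 (0.96). H2bc12 lay at 1.41 to 1.74 CPM and Uap1l2 at 1.87 to 2.59 CPM in the WKY libraries, and neither had a read in the other 9. The pattern most like summed globin was that of LOC100134871 (0.99), which the GRCr8 table names Hbbl1, a beta globin gene that the choice by symbol left out. It was followed by LOC103694855 (0.97), Gng11, a G protein gamma subunit (0.94), Lgals5, the galectin of rat red cells (0.92), and Nrip2 (0.92). These values are descriptions over libraries that differ in chamber markers and depth. The WKY libraries had lower totals than all others, at 11252361 to 11730665 counts.

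Hbbl1 lay at 115, 56.1 and 98.0 CPM in the WKY libraries, at 18.1, 44.8 and 47.1 in the SHR libraries, at 17.5, 22.9 and 166 in the ARB libraries and at 11.03, 39.8 and 25.4 in the ARNI libraries. As for Hbb, ARB replicate 3 was the highest library and ARNI replicate 1 the lowest. Adding it to the sum left the log2 differences in summed globin at 0.32 for ARB over SHR, -0.54 for ARNI over SHR and -0.86 for ARNI over ARB.

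Other blood and red cell genes were tested as lists that the choice of genes did not use. Between the SHR and WKY groups, 8.89% of all genes were called by edgeR's quasi-likelihood test (Benjamini-Hochberg adjustment), 39.4% of all genes had an unadjusted p under 0.05, and the median over all genes tested was 0.01 on the log2 scale. Of 17 heme synthesis and iron uptake genes, 0 rose and 1 fell (median log2 fold change -0.43), and 12 had an unadjusted p under 0.05. It was Alas1, the form of the enzyme used outside red cells, which fell by 1.502 on the log2 scale (SE 0.34, adjusted p = 0.0286 by edgeR's quasi-likelihood test). Alas1 was at 518 to 628 CPM in the WKY libraries, 526 in ARNI replicate 2, and 152 to 342 in the other 8. Of 10 genes of heme and hemoglobin clearance, 0 rose and 1 fell (median -0.05), namely Cd163, the macrophage receptor for hemoglobin bound to haptoglobin, which fell by 1.33 (SE 0.32, adjusted p = 0.0341), and 3 had an unadjusted p under 0.05. Without SHR replicate 2 both were still called, at -1.99 for Alas1 and -1.15 for Cd163. That library is the only one of the SHR group above 1000 CPM of Myl2, where all WKY libraries lie. Leaving it out therefore cannot separate these calls from the chamber markers. None of 6 erythroid maturation genes (median 0.12), 5 red cell enzymes (median -0.46) and 2 other globins (median -0.50) was called by edgeR's quasi-likelihood test or by DESeq2, and 2, 3 and 0 of them had an unadjusted p under 0.05. The other globins hold myoglobin (Mb), the oxygen store of muscle. It was at 12070 to 16293 CPM in the libraries with Myl2 above 1000 CPM and at 3771 to 6971 CPM in the others. Klf1, a transcription factor of red cell precursors, was at 0.267 to 1.35 CPM and Ahsp, the alpha globin chaperone, was at 0 to 1.27 CPM.

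Markers of other blood cells were examined beside globin. Of 3 platelet genes tested, 1 rose in the SHR group, Gp1bb, a subunit of the platelet von Willebrand factor receptor, by 1.95 on the log2 scale (SE 0.34, adjusted p = 0.0151, edgeR's quasi-likelihood test), and 0 fell (median 0.54). Gp1bb was at 4.04 to 7.25 CPM in the WKY libraries and 1.89 in ARNI replicate 2, the libraries low in Myl7. In all others it was at 14.5 to 47.5 CPM. The part of platelets and of the heart chamber in its level was not tested. Pf4, platelet factor 4, was at 2.67 to 2.90 CPM in the WKY libraries and 1.94 to 6.30 in the SHR libraries. It reached 20.5 CPM in ARB replicate 1, a library low in globin, and 21.7 CPM in ARB replicate 3, the highest in globin. Its lowest value was in ARNI replicate 1 (1.83 CPM), the lowest in globin, close to that of SHR replicate 1 (1.94 CPM). Ppbp, another platelet marker, was at 0 in all WKY libraries and at most 0.794 CPM elsewhere. Summed over 11 genes, the platelet level was 9.78 to 15.3 CPM (WKY), 23.9 to 39.3 (SHR), 35.5 to 119 (ARB) and 7.47 to 36.4 (ARNI).

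Of 3 neutrophil genes (median -0.44), 4 lymphocyte genes (median -0.40) and 10 endothelial genes (median -0.04), 0 were called by edgeR's quasi-likelihood test or by DESeq2, and 0, 0 and 2 had an unadjusted p under 0.05. The neutrophil markers S100a8 and S100a9 were at 0.0632 to 1.19 and 0.253 to 3.96 CPM, both highest in ARB replicate 3 as the globin genes were. The endothelial marker Pecam1 was at 143 to 269 CPM. The lowest S100a8 values, 0.0632 CPM in ARNI replicate 1 and 0.0669 in SHR replicate 1, lay below the level of 3 reads and cannot be ranked. The lowest S100a9 values, 0.253 CPM in ARNI replicate 1 and 0.271 in SHR replicate 3, lay just above that level and are not ranked either. The neutrophil sum was 10.7 to 13.1 CPM (WKY), 6.12 to 12.2 (SHR), 9.27 to 17.8 (ARB) and 4.85 to 20.6 (ARNI). Unlike globin, this sum was highest in ARNI replicate 3 (20.6 CPM) and not in ARB replicate 3 (17.8 CPM). The part of these cells in the globin levels was not tested. All 6 atrial genes were called higher in the SHR group, among them Bmp10, Mybphl and Sln, and Sln, a calcium pump regulator of atrial muscle, was at 0.261 to 0.444 CPM in the WKY libraries and 668 to 1736 CPM in the SHR libraries. Of 5 ventricular genes, 0 rose and 1 fell. Myh7, the slow myosin heavy chain, fell by 4.65 on the log2 scale (SE 1.04, adjusted p = 0.0275, edgeR's quasi-likelihood test). Without SHR replicate 2, Gp1bb was at 2.196, Myh7 at -6.59 and Sln at 11.7 on the log2 scale, and all were called. Leaving that library out widened the difference in chamber markers, so these values are no check on the chamber. In the 3 drug comparisons 0 genes of the 12 lists were called by edgeR's quasi-likelihood test or by DESeq2, and 6 of 84 (ARB over SHR), 1 of 83 (ARNI over SHR) and 4 of 85 (ARNI over ARB) had an unadjusted p under 0.05.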

How the data were processed

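RNA-seq libraries (single-end short reads) of left atrial tissue were read from the table the study deposited. The authors filtered reads with SOAPnuke, mapped them with HISAT2 (2.0.4) and Bowtie2 (2.2.5), estimated expected counts for each gene with RSEM and deposited them without normalization. The submitters' processing notes name the build Rnor_6.0. Of 37246 genes listed, 21239 had counts, and 23.6% of the expected counts were not whole. The table also holds the authors' own fold changes and p-values for SHR over WKY, which were not used.

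CPM were computed from the expected counts and library totals. Counts were rounded for testing. Genes low in counts were removed with filterByExpr, libraries were scaled by TMM, and edgeR's quasi-likelihood test (version 4.0.16, R 4.3.3) was run on the 6 libraries of each pair, with Benjamini-Hochberg adjustment over all genes tested. DESeq2 (1.42.0), other scalings, no filter, 1 fit over 12 libraries, a replicate block, each library left out, and the SHR and WKY libraries exchanged were tried as alternatives. In all, 5 further alternatives were chosen after seeing the data. They took Hba-a2 as a share of Hba-a1 and Hba-a2, added Hbbl1 to the sum, left out the libraries of SHRs above 1000 CPM of Myl2, did so without the filter for Slc4a1, and took correlations less the group means or without these libraries. The steps were tested on simulated counts. Other steps ran in Python 3.11.15 (numpy 2.4.6, pandas 2.3.3, scipy 1.17.1, Biopython 1.88, matplotlib 3.10.9).

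The genes and the 12 lists (137 genes) were chosen with earlier results of these data known. All 7 genes were named, with up to 3 called genes per list and direction, defining markers and the 5 genes most like Hba-a3 and summed globin. The list of red cell membrane genes is not reported here. No p is given for the SHR against WKY values of the 7 genes. Permutation tests of summed globin and of correlations with it had been set down, and no p is given for either, since the sums are scores over the chosen genes. Same-numbered ARNI and SHR libraries deviated together from their group means (r = 0.51, 0.46 and 0.19). SHR replicate 2 and ARNI replicate 2 were also the only libraries of their groups above 1000 CPM of Myl2. A pairing of the rats and this shared tissue marker cannot be told apart, and no pairing is given in the sources used here. In each drug comparison, 0 of the 5 genes tested were called with the replicate block, as without it. All 7 gene IDs were found in the RefSeq table of GRCr8, and promoters of the 5 globin genes were read from the RefSeq promoter table.

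Depth was 11252361 to 15823525 counts per library, so that 3 reads, the limit a count of 0 allows, stand for 0.190 to 0.267 CPM. Since the reads carry no molecular identifiers, several can stem from 1 molecule, and intervals and limits are for counting error alone.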

Additional observations from a re-analysis of the deposited data

How the results depend on the processing

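In the drug comparisons, the values of the 5 genes tested stayed outside the call threshold under every alternative run (lowest adjusted p 0.808 for ARB over SHR, 0.218 for ARNI over SHR and 0.701 for ARNI over ARB), while 14 of 67, 12 of 70 and 5 of 65 alternative values changed sign. With single libraries left out, ARB over SHR ranged from -0.86 to 1.54 for Hba-a1, -0.89 to 1.61 for Hba-a2, -0.78 to 1.499 for Hbb, -1.02 to 1.57 for Hbb-bs and -0.73 to 1.59 for Alas2, negative only without ARB replicate 3. ARNI over SHR ranged from -0.98 to 0.0557, -0.98 to 0.0328, -1.06 to 0.12, -1.25 to 0.30 and -0.76 to 0.44 in the same order, with Hba-a1, Hba-a2 and Hbb positive only without ARNI replicate 1. ARNI over ARB ranged from -2.05 to 0.54, -2.12 to 0.56, -2.09 to 0.50, -2.32 to 0.90 and -1.88 to 0.79, positive only without ARB replicate 3. Single values that turned were -0.27 (without SHR replicate 1) and -0.76 (without ARNI replicate 2) for Alas2, and for Hbb-bs 0.28 without SHR replicate 3, 0.30 without ARNI replicate 1 and 0.13 without ARNI replicate 3, all in ARNI over SHR. The difference in summed globin ranged from -0.72 to 0.89 for ARB over SHR, -1.01 to -0.01 for ARNI over SHR and -1.43 to 0.18 for ARNI over ARB.

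Without the libraries of SHRs above 1000 CPM of Myl2, ARB over SHR was -0.72 for Hba-a1, -0.75 for Hba-a2, -0.65 for Hbb, -1.01 for Hbb-bs, -0.46 for Alas2 and -0.59 for summed globin, and Alas2 was -0.48 for ARNI over SHR. Alas2 in ARNI over SHR was also -0.0775 with library totals and -0.11 with the replicate block. No other sign of the 7 genes turned under the block. With the SHR and WKY libraries exchanged, ARB over SHR was -0.14 for Hba-a1, -0.11 for Hbb, -0.0549 for Hbb-bs and -0.31 for Alas2, Alas2 was -1.40 for ARNI over SHR, and 1 of the 7 genes, Hba-a3, was called in each of these comparisons. The exchange gave 1526 called genes and 12 list genes for ARB over SHR and 34 called genes for ARNI over SHR, where DESeq2 gave 3, 7 and 18 called genes for ARB over SHR, ARNI over SHR and ARNI over ARB.

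Between the SHR and WKY groups, 1226 of 13794 genes were called, 579 in 1 fit over all 12 libraries, 681 with the replicate block, 348 to 2205 with single libraries left out, and 2205 without SHR replicate 2, the only library of the pair that the Myl2 limit removes. For list genes the counts were 11, 5 in 1 fit, 5 to 20 with single libraries left out and 20 without SHR replicate 2. Without scaling, the median of all genes was 0.15 on the log2 scale, 0.01 with TMM, and the called genes were 985 higher and 363 lower, against 764 and 462. Same-numbered SHR and WKY libraries did not deviate together from their group means (r = 0.03, -0.05 and -0.07). For the ARB libraries r had both signs (0.42, -0.24 and -0.25 with SHR, 0.52, -0.45 and -0.15 with ARNI). The causes were not tested.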
